A study of Rattus norvegicus with 9 samples.

Results

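The rat X chromosome carries a small group of miRNA genes inside Clcn5, the gene of an endosomal chloride and proton exchanger. Mature miRNAs of this group were described here across 9 small RNA libraries of rat cornea. The 7 members, rno-miR-532-5p, rno-miR-532-3p, rno-miR-362-5p, rno-miR-362-3p, rno-miR-501-3p, rno-miR-188-5p and rno-miR-500-3p, were matched by name among the 765 mature miRNAs of the deposited table, and all 7 were present; the prefix for rat is left out below. They had been chosen because they stood higher together in allografts, so their levels in allografts are a description and carry no test. Isografts against normal corneas and the balance of the arms of a hairpin were tested. Neither is independent of the choice in full: the members were chosen over the columns of all 3 groups, so the first of these tests shares its normal and its isograft libraries with the choice, and the second the reads of both arms.

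All 9 libraries are labelled Wistar rats of 6 weeks of age. There are 3 libraries of untouched normal cornea, 3 of isograft cornea, a transplant whose donor matches the recipient by the meaning of the term, and 3 of allograft cornea, whose donor differs by that meaning. Donor strain, sex of the animals, time after surgery, treatment and the state of the grafts are not stated in the labels, nor is it stated that libraries within a group stem from different animals. The p-values below therefore set group differences against the spread of these libraries, which may be technical. A library is called by its group and its title number, which is 12, 34 or 56. Values are RPM, the reads of a miRNA scaled to a common library total.

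miRNAs are cut from hairpins in longer transcripts. Each hairpin yields a 5p and a 3p arm, 1 of which is usually kept in far greater amount, and bases 2 to 8 of the mature strand, the seed, pair with target mRNAs. Neighbouring hairpins inside a protein-coding gene are often made from the same transcript as their host, which is why such miRNAs are described together. The members of this cluster are known from many tissues and from tumours, and no role of theirs in the cornea is assumed here.

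In the RefSeq annotation of the assembly GRCr8 the 5 hairpins lie on the plus strand of chromosome X, the strand of Clcn5, within 11542 bases. Mir532 is at chrX:17919185-17919263, Mir188 at chrX:17919585-17919664, Mir362 at chrX:17926485-17926549, Mir501 at chrX:17927189-17927272 and Mir500 at chrX:17930647-17930726. They form a close pair, Mir532 and Mir188 with 321 bases between them, and after 6820 bases a second group in which Mir362 and Mir501 are 639 bases apart. Clcn5 has 2 annotated start sites in that table. One lies 61.9 kb before the first hairpin and the other 49.3 kb after the last. Of these 2 starts, only the upstream one could yield a transcript that runs through the hairpins. Starts outside the annotation were not examined. The table used gives the span of Clcn5 and not its exons, so the usual description of the cluster as intronic was not checked. The deposited RPM values were made on another build, rn6, and carry no coordinates.

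Mature sequences were found in RefSeq for 6 of the 7 members. They are shown 5′ to 3′ with the seed in capitals, because the seeds show which members could recognise the same targets and which miRNAs elsewhere in the genome share them.
miR-532-5p: cAUGCCUUgaguguaggacugu
miR-188-5p: cAUCCCUUgcaugguggaggg
miR-532-3p: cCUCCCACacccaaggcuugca
miR-362-3p: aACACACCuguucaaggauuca
miR-501-3p: aAUGCACCcgggcaaggauuugg
miR-500-3p: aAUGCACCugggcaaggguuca
The seed of miR-501-3p is identical to that of miR-500-3p, and 18 of the first 22 positions of these miRNAs are the same, so reads of one could be counted for the other if mismatches were allowed. The seeds of miR-532-5p and miR-188-5p agree at 6 of 7 positions. Outside the cluster, the seed of miR-532-5p is also that of miR-511-5p, and the seed of miR-362-3p is also that of miR-329-3p. No miRNA in the reference table shared the seed of miR-532-3p or miR-188-5p.
miR-511-5p: cAUGCCUUuugcucugcacuc
miR-329-3p: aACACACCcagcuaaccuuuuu
Beyond base 8 the likeness ends: miR-532-5p and miR-511-5p have the same base at 5 of 13 further positions, and miR-362-3p and miR-329-3p at 4 of 14.

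**Figure D1:**
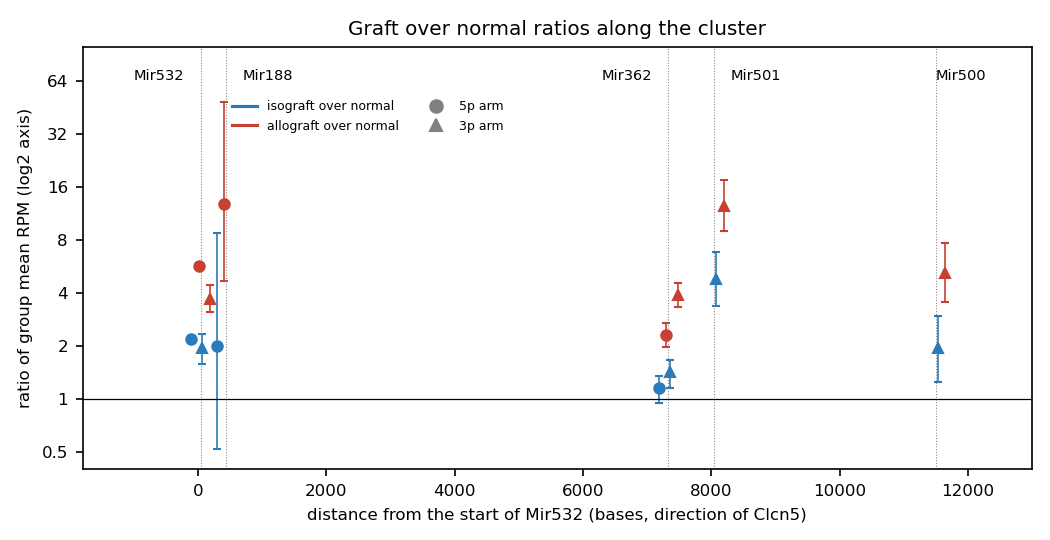
Ratio of the mean RPM of isografts (blue) or allografts (red) to normal corneas for each member, on a log2 axis, against the distance of its hairpin from the start of Mir532 in bases. Circles are 5p arms and triangles 3p arms, set slightly apart sideways so that they can be told apart; bars are 95% intervals for counting error only. The allograft ratios run from 2.31 for miR-362-5p to 12.8 for miR-188-5p, and the isograft ratios from 1.15 to 4.78.

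The RPM denominators ran from 11001459 to 12153889 reads per library, so that 1 read was worth 0.0823 to 0.0909 RPM. Listed miRNAs took 26.4% to 65.6% of these reads, the most in normal 34 and the least in allograft 34. An RPM value falls when a library holds more reads from outside the listed miRNAs. Intervals and floors given here cover counting error and nothing else, because the reads carry no molecular identifiers and are not independent molecules. RPM values of different miRNAs are compared below as read numbers; ligation favours some sequences over others.

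miR-532-5p was by far the most abundant member. In normal corneas it was at 90.9, 131 and 108 RPM in libraries 12, 34 and 56. In isografts it was at 157, 266 and 299 RPM, and in allografts at 574, 464 and 856 RPM. The 3 groups did not overlap, and the lowest isograft stood above the highest normal cornea. Its mean of 110.1 RPM ± 20.3 in normal corneas ranked 98 among the listed miRNAs, that of 240.5 ± 74.1 in isografts ranked 76 and that of 631 ± 202 in allografts ranked 54 (SD, n = 3 each). Behind these means were 3637, 8120 and 20843 reads.

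The other arm of the same hairpin, miR-532-3p, was read far less. It was at 4.72, 5.36 and 4.81 RPM in normal corneas, at 4.94, 12.4 and 11.8 RPM in isografts and at 14.4, 11.99 and 28.7 RPM in allografts. Every allograft was above every normal cornea, while isograft 12 lay among the normal corneas and allograft 34 below isograft 34.

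Both arms of miR-362 were tested, and both were low. miR-362-3p was at 6.17, 6.18 and 6.09 RPM in normal corneas, at 2.96, 10.6 and 12.7 RPM in isografts and at 17.6, 19.5 and 34.4 RPM in allografts. The normal libraries were almost equal, the isografts lay on both sides of them and the allografts were above all others. miR-362-5p was at 6.45, 8.54 and 6.45 RPM in normal corneas, at 3.78, 12.5 and 8.36 RPM in isografts and at 11.4, 15.8 and 22.3 RPM in allografts. Its allografts were above the normal corneas but overlapped the isografts, since isograft 34 stood above allograft 12.

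miR-501-3p, the arm of its hairpin that is kept, differed from its neighbour miR-362 in how low it was without surgery. It was at 1.63, 0.545 and 1.54 RPM in normal corneas, at 5.43, 6.999 and 5.36 RPM in isografts and at 13.4, 15.6 and 17.3 RPM in allografts. The 3 groups did not overlap and the libraries of a graft group lay close together. It reached the 5 RPM needed for testing in grafts only, so it could enter the fit solely through the groups in which it was high, with 41 reads in the 3 normal libraries together.

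miR-500-3p and miR-188-5p stayed under the level set for testing, which was 5 RPM in at least 3 libraries. miR-500-3p, whose seed is that of miR-501-3p, was at 1.18, 0.818 and 1.09 RPM in normal corneas, at 0.576, 2.09 and 3.36 RPM in isografts and at 3.91, 4.09 and 7.996 RPM in allografts. The allografts were above all other libraries, and the isografts lay on both sides of the normal corneas. miR-188-5p had 1, 1 and 2 reads in normal corneas, 0, 2 and 6 reads in isografts and 14, 14 and 23 reads in allografts. The 0 reads of isograft 12 allow a level of up to 0.247 RPM. The 51 reads of the allografts against 4 in normal corneas gave a ratio of mean RPM of 12.8 (95% exact binomial interval 4.69 to 48.6, counting error only).

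**Figure D2:**
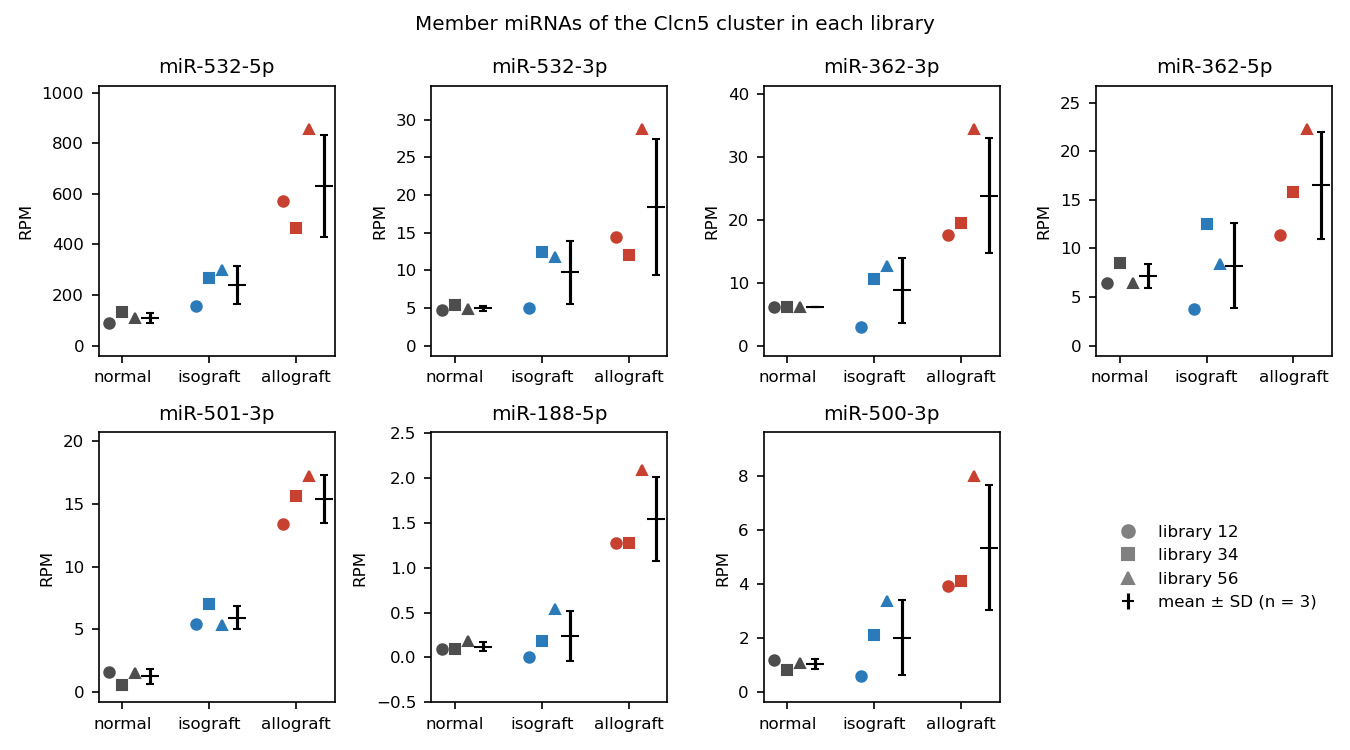
RPM of each of the 7 members in each of the 9 libraries, on linear axes of their own; grey, blue and red are normal, isograft and allograft libraries, the marker shape is the number in the title, and the black bar beside each group is the mean ± SD (n = 3). In all 7 panels the red markers lie above the grey ones, allograft 56 is the highest, and for miR-188-5p the mean of the isografts has an SD larger than itself.

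All 7 members were higher in every allograft than in every normal cornea, which the choice of members favours. Among the 281 miRNAs tested, 29.9% had that order. The ratio of mean RPM in allografts to normal corneas was 2.31 for miR-362-5p, 3.70 for miR-532-3p, 3.88 for miR-362-3p, 5.18 for miR-500-3p, 5.73 for miR-532-5p, 12.4 for miR-501-3p and 12.8 for miR-188-5p. So members of neighbouring hairpins differed: the counting interval of miR-501-3p, 9.04 to 17.6, lay above that of miR-362-3p, 3.32 to 4.55, and above that of miR-362-5p, 1.98 to 2.70. Whether that gap exceeds the spread between libraries was not tested, since the members were chosen on this contrast.

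On the log2(RPM + 1) scale of the fitted model (limma), which understates the change of low miRNAs, allografts differed from normal corneas by 2.91 (SE 0.34) for miR-501-3p, 2.48 (SE 0.38) for miR-532-5p, 1.74 (SE 0.42) for miR-362-3p, 1.60 (SE 0.40) for miR-532-3p and 1.06 (SE 0.40) for miR-362-5p. The median over all 281 tested miRNAs was -0.14. All 5 tested members were among the 23.1% of miRNAs called higher in allografts at an adjusted p under 0.05, a count from which nothing is read because this contrast chose them. That of miR-362-5p was not called after RPM without miR-184 was used, at 0.68, without a filter, at 1.06, or without normal 12, normal 56, allograft 34 or allograft 56, at 1.00, 1.00, 1.07 and 0.83. miR-184, the dominant miRNA of corneal epithelium, takes a smaller share of the reads in grafts. Measured from the median of all tested miRNAs, the allograft difference of miR-532-5p lay between 2.61 and 2.65 and that of miR-501-3p between 2.90 and 3.26 under RPM and 3 other scalings. A scaling shifts all miRNAs of a library alike, so these narrow ranges are nearly fixed in advance and are no test. Not measured from the median, the difference ran from 2.05 to 3.19 for miR-532-5p over these scalings. For miR-501-3p it ran from 2.69 to 3.44.

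Against isografts, which form the other comparison of the choice, allografts were higher without overlap for 5 of the 7 members, where 16.4% of the tested miRNAs had that order. The exceptions were miR-532-3p and miR-362-5p. The log2 differences were 1.47 (SE 0.42) for miR-362-3p, 1.39 (SE 0.38) for miR-532-5p, 1.25 (SE 0.34) for miR-501-3p, 1.00 (SE 0.40) for miR-362-5p and 0.85 (SE 0.40) for miR-532-3p, with a median of -0.29 over all tested miRNAs. Of the 5 tested members 3 were called, miR-362-3p, miR-532-5p and miR-501-3p, beside 13.5% of all tested miRNAs. Nothing is read from that count either, because this comparison also served the choice. Without isograft 12 the difference of miR-362-3p was 0.92. All 3 calls held with each library left out in turn, which adds no support, since the choice used these libraries.

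Isografts against normal corneas ask what the cluster did where the donor matched by name. Of the 7 members 2, miR-532-5p and miR-501-3p, had every isograft above every normal cornea, where 22.4% of tested miRNAs had. Both were also called higher in the fit, as were 16.7% of all tested miRNAs. miR-532-5p, which passed the filter in all groups, rose by 1.08 on the log2 scale (SE 0.38; limma, Benjamini-Hochberg adjustment over 281 miRNAs, adjusted p = 0.035), with a ratio of means of 2.18. That call did not hold in 8 of 22 alternatives; over the 22 the adjusted p ran from 3.3e-08 to 0.195. It was lost without normal 12 (adjusted p = 0.182), normal 34 (0.0668), normal 56 (0.132), isograft 34 (0.119), isograft 56 (0.195) or allograft 12 (0.0616), without a filter (0.0588) and on RPM without miR-184 (0.181), always with a positive difference. miR-501-3p had a ratio of means of 4.78 and a difference of 1.66 (SE 0.34, adjusted p = 0.00039 in the same limma fit). Because the filter admitted it through the grafts alone, this p is no independent support. With no filter on level, over the 606 miRNAs with a read in any library, its adjusted p in limma was 0.0046. That p is no independent support either, since the member was chosen over the columns of all groups.

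The 3 other tested members did not pass in isografts. miR-532-3p differed by 0.75 (SE 0.40, 95% interval -0.06 to 1.57, adjusted p = 0.214), miR-362-3p by 0.26 (SE 0.42, interval -0.60 to 1.13, adjusted p = 0.759) and miR-362-5p by 0.07 (SE 0.40, interval -0.75 to 0.88, adjusted p = 0.933). These intervals reach past a doubling for both 3p arms, so the data do not show that the arms stayed level. miR-532-3p reached 5 RPM in normal 34 only among the normal corneas. Without isograft 12, it differed by 1.13 and passed (adjusted p = 0.0086), and it also passed after scaling by the median of ratios (0.66, adjusted p = 0.013), after scaling to the listed miRNAs (1.00, adjusted p = 0.0088), with edgeR (0.78, adjusted p = 0.011) and with DESeq2 (0.79, adjusted p = 0.0082). Without isograft 12, miR-362-3p stood at 0.82 and miR-362-5p at 0.48, neither past the threshold. Of the low members, miR-500-3p had a ratio of means of 1.95 (counting interval 1.24 to 2.97) and miR-188-5p of 2.0 (0.518 to 8.77), both with overlapping groups.

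**Figure D3:**
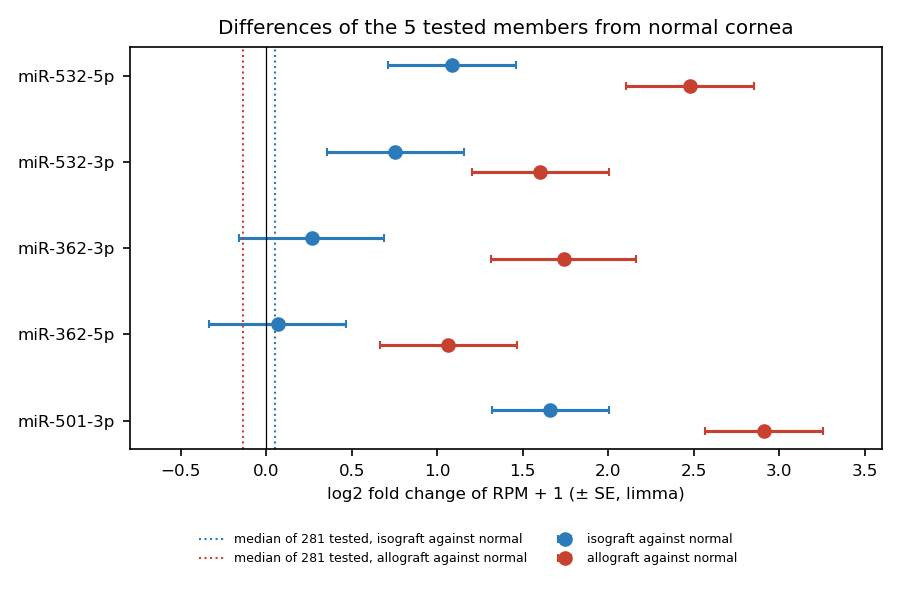
Log2 fold change of RPM + 1 against normal cornea for the 5 tested members, with bars of 1 SE from the fitted model; blue is isografts, red is allografts, and the dotted lines are the medians of the 281 tested miRNAs, 0.05 and -0.14. The blue points run from 0.07 for miR-362-5p to 1.66 for miR-501-3p, and each red point lies to the right of the blue one; both comparisons share the normal libraries.

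Some graft libraries held the same place for most members, while normal libraries did not: normal 12 was the lowest normal cornea for 4 of 7 members and the highest for 2, and normal 34 the highest for 4 and the lowest for 2. Allograft 56 was the highest allograft for 7 of 7 members and isograft 12 the lowest isograft for 6 of 7, the exception being miR-501-3p. The same libraries stood out in the share of reads that were listed miRNAs, 46.3% in allograft 56 against 33.9% and 26.4% in the other allografts, and 36.8% in isograft 12 against 54.5% and 48.8%. Given as a share of the listed miRNA reads, the members summed to 0.187%, 0.201% and 0.209% in allografts; the isografts were at 0.0474%, 0.0569% and 0.0698% and the normal corneas at 0.0238%, 0.0233% and 0.0211%. On this scale the allografts lay closer together than in RPM, where the members summed to 636, 532.1 and 969.

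Marker sums of other cells stood apart from normal corneas in both graft groups, except for red blood cells. The 5 leukocyte miRNAs listed (both arms of miR-142, miR-223-3p, miR-150-5p and miR-155-5p) rose in each graft group against normal corneas, 5 of 5, where 16.7% of all tested miRNAs were called higher in isografts and 23.1% in allografts, and summed to 46.0 to 56.7 RPM in normal corneas; the sums were 156 to 327 in isografts and 2293 to 3997 in allografts. miR-142-3p and miR-142-5p had means of 2.82 and 3.51 RPM in normal corneas, under the 5 RPM of the filter. They could enter the fit only with the help of graft libraries, so their calls are no independent support. Allograft 56 had the highest leukocyte sum of the allografts and isograft 12 the lowest of the isografts. The 8 epithelial miRNAs summed to 271148 to 420587 RPM, 159213 to 193990 and 37254 to 90969, and 4 of 8 fell in isografts, where 4.63% of all tested miRNAs were called lower, and 7 of 8 in allografts, where 24.2% were. The 5 miRNAs of stroma and smooth muscle summed to 6858 to 8753 RPM, 15365 to 30782 and 9949 to 18886, with 4 of 5 higher in each graft group, and the 2 arms of the endothelial miR-126a to 346 to 857, 2095 to 6150 and 2955 to 4874, with both higher in each. The 3 red blood cell miRNAs summed to 82.3 to 343 RPM, 13.6 to 181 and 17.5 to 1067, and the 4 muscle miRNAs to 202 to 284, 49.6 to 89.4 and 25.7 to 34.3. The red blood cell sum of 1067 RPM was that of allograft 34, while allografts 12 and 56 were at 19.2 and 17.5 RPM. No marker was at 0 throughout a group. Their part in the levels of the members was not tested, and in whole corneas a change in the number of cells of a type and in the RNA of each cell cannot be told apart.

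The plain ratio of the arms of a hairpin is free of library scaling; the tested log2 ratio, with 1 RPM added to each arm, is not where an arm is low. Hairpins differed in which arm was kept. Over all 9 libraries the 3p arm made up 3.25% of the reads of miR-532 (1096 of 3p beside 32600 of 5p; 95% exact binomial interval 3.07 to 3.45), 54.9% of miR-362 (52.8 to 56.9), 99.6% of miR-501 (98.8 to 99.9), 96.2% of miR-500 (93.3 to 98.1) and 1.56% of miR-188 (0.0396 to 8.40). So miR-532 and miR-188, the close pair of hairpins, were read almost wholly from the 5p arm, miR-501 and miR-500 almost wholly from the 3p arm, and miR-362 from both. The other arms that the table lists, miR-501-5p, miR-500-5p and miR-188-3p, had 3, 11 and 1 reads in the 9 libraries together.

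The miR-532 hairpin is shown with both mature arms in capitals, the 5p arm first, since its balance is described next.
Mir532: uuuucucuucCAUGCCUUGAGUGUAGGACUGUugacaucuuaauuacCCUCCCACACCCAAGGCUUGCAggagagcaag
The 5p arm of miR-532 exceeded the 3p arm 19.2-, 24.5- and 22.5-fold in normal corneas, 31.8-, 21.5- and 25.3-fold in isografts and 39.98-, 38.7- and 29.8-fold in allografts. Normal corneas and allografts did not overlap, while isograft 12 stood above allograft 56. The mean log2 ratio, with 1 RPM added to each arm, was 4.20 ± 0.19 for normal corneas, 4.53 ± 0.21 for isografts and 5.08 ± 0.20 for allografts (SD, 3 libraries each). It differed over the 3 groups (exact permutation test over all 1680 assignments of the libraries, p = 0.00714, 0.0143 after Benjamini-Hochberg adjustment over the 2 ratios tested). This call rested on the amount added. An added amount lowers the ratio most where the 3p arm is low. miR-532-3p averaged 4.97 RPM in normal corneas and 18.4 RPM in allografts, so the added amount ties the test to the levels used for the choice. With no pseudocount, chosen after seeing the data, the exact permutation p was 0.05 and 0.1 after the same adjustment, with allografts above normal corneas by 0.71. With 0.1 RPM added the exact p was 0.0429 (adjusted 0.0857, difference 0.73), and with 5 RPM added 0.00357 (adjusted 0.00714, difference 1.27). With 1 RPM added, allografts exceeded normal corneas by 0.87 and isografts by 0.55, each with p = 0.1, the smallest that 3 against 3 libraries can give in the exact permutation test, and isografts exceeded normal corneas by 0.33 (exact permutation p = 0.2).

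For miR-362 the balance lay the other way, without passing a test. The 5p arm was 1.04, 1.38 and 1.06 times the 3p arm in normal corneas, 1.28, 1.18 and 0.657 times in isografts and 0.644, 0.809 and 0.646 times in allografts. All 3 allografts had more 3p than 5p, all 3 normal corneas more 5p than 3p, and isograft 56 resembled the allografts. The mean log2 ratios were 0.18 ± 0.20, -0.02 ± 0.46 and -0.50 ± 0.18 (SD, 3 libraries in each group; p = 0.121 in the same exact permutation test, and 0.121 after adjustment). Without isograft 56 the exact permutation p was 0.0286, while leaving out any other library gave 0.107 to 0.211. The 3p arm is shown in capitals in its hairpin, the 5p arm being absent from the reference table.
Mir362: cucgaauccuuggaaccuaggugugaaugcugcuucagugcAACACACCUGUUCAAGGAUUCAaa

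**Figure D4:**
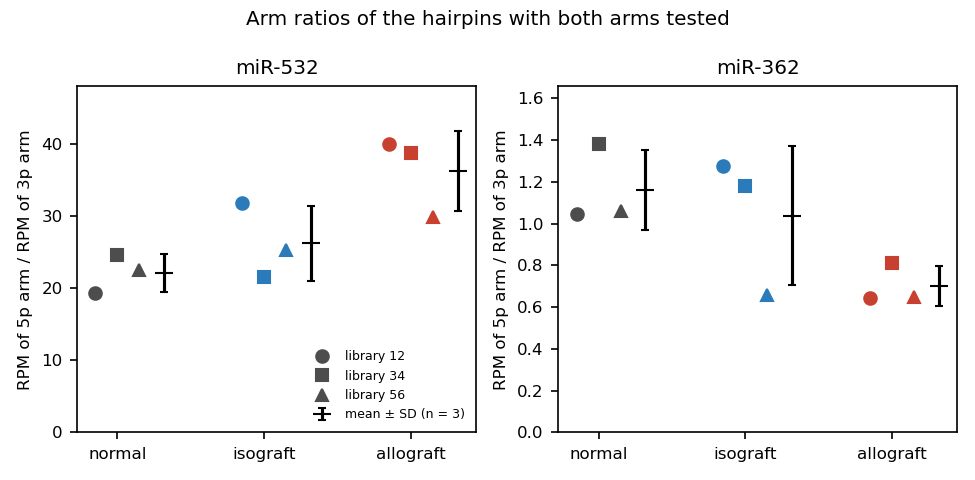
RPM of the 5p arm divided by RPM of the 3p arm of miR-532 (left) and miR-362 (right) in each library, on linear axes from 0; the marker shape is the number in the title and the black bar the mean ± SD (n = 3). The miR-532 ratio is 19.2 to 24.5 in normal corneas and 29.8 to 39.98 in allografts, and the miR-362 ratio 1.04 to 1.38 and 0.644 to 0.809.

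The annotation also holds a miRNA gene, Mir3560, on the minus strand over Mir501, and its mature miRNA is the reverse complement of 22 bases of miR-501-3p. miR-3560 had 0 reads in each of the 9 libraries, which allows up to 0.247 to 0.273 RPM in a library. The reads of miR-501-3p thus had no counterpart from the other strand at this depth.

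The miRNAs that share a seed with a member moved apart from each other. miR-511-5p, whose seed is that of miR-532-5p, comes from the gene of the macrophage mannose receptor. It was at 0.0908, 0.363 and 0.0908 RPM in normal corneas, at 1.07, 1.55 and 1.82 RPM in isografts and at 2.82, 3.45 and 4.09 RPM in allografts, too low to test, with no overlap between the groups. miR-329-3p, whose seed is that of miR-362-3p, belongs to the imprinted Dlk1-Dio3 cluster. It was at 6.45, 4.18 and 11.1 RPM in normal corneas, at 6.25, 6.09 and 5.81 RPM in isografts and at 1.82, 1.999 and 3.09 RPM in allografts. No allograft reached 5 RPM, so it entered the fit through the other groups alone, and its p in allografts is no independent support. It fell by 1.25 in allografts against normal corneas (SE 0.35; limma, adjusted p = 0.0042) and did not pass in isografts, at -0.14 (SE 0.35, adjusted p = 0.870). So in normal corneas miR-362-3p and miR-329-3p had similar levels, with means of 6.15 and 7.24 RPM, and in allografts means of 23.9 and 2.30 RPM.

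The miRNAs whose levels over the 9 libraries were most like the mean profile of the 5 tested members were miR-340-5p, at a Pearson r of 0.984, miR-21-3p at 0.979, miR-350 at 0.974, miR-147 at 0.973 and miR-19a-3p at 0.971. The tested members had an r of 0.883 for miR-501-3p to 0.978 for miR-532-3p with that profile, of which they are part. These are descriptions over 9 libraries in 3 groups, and all miRNAs of a library share its depth and its share of listed reads. miR-340-5p, from the gene Rnf130, was close to miR-532-5p in level too, at 99.1, 139 and 110.5 RPM in normal corneas, 76.4, 233 and 223 RPM in isografts and 416, 407 and 744 RPM in allografts. miR-21-3p, the minor arm of miR-21, had means of 0.666 RPM in normal corneas, 3.43 RPM in isografts and 17.0 RPM in allografts. miR-147, which macrophages make after Toll-like receptor stimulation, had 2.03, 4.81 and 30.3 RPM, miR-19a-3p of the miR-17-92 cluster 4.30, 6.44 and 19.7 RPM, and miR-350 2.45, 4.70 and 7.72 RPM.

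Other miRNAs of the X chromosome did not move as 1 group. Of 18 listed, all tested, 9 rose in isografts, where 16.7% of all tested miRNAs were called higher, and none fell, with a median log2 fold change of 1.05 (0.05 over all tested miRNAs). In allografts against normal corneas 8 rose and 1 fell, with a median of 0.83 (-0.14 over all tested miRNAs, of which 23.1% were called higher and 24.2% lower). miR-452-5p, miR-363-3p and miR-20b-5p had means of 0.424, 2.06 and 1.24 RPM in normal corneas, under the 5 RPM of the filter. They could enter the fit only with the help of graft libraries, so their rises are no independent support. miR-223-3p, a myeloid miRNA, was at 5.60 (SE 0.41) and miR-363-3p at 5.58 (SE 0.40) in allografts, while miR-98-5p was at 0.40 (SE 0.38), miR-361-5p at -0.32 (SE 0.43) and miR-652-3p at 0.38 (SE 0.40), none of the last 3 past the threshold. The 5 tested members lay between these, from 1.06 to 2.91.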

How the data were processed

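Small RNA was sequenced from 9 rat cornea libraries, made with Trizol RNA and an Illumina TruSeq small RNA kit, per the labels. The deposited table holds RPM values for 765 mature miRNAs, computed by the authors; bcl2fastq, BWA and the build rn6 are named in the submitters' processing notes, while tool versions, trimming, miRNA annotation and the treatment of multi-mapping reads were not given in the sources used here. All 9 columns were matched to libraries by title. RPM steps gave whole reads for 100% of values (tolerance 0.1 read). Libraries of a group differed beyond counting noise, so none was a copy or a random split of another. This does not show that they stem from different animals or RNA samples.

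The 281 miRNAs that reached 5 RPM in 3 or more libraries were fitted with limma 3.58.1 in R 4.3.3 on log2(RPM + 1), with a mean-variance trend and all 9 libraries, with Benjamini-Hochberg adjustment over all 281 (threshold 0.05). Arm ratios were compared with exact two-sided permutation tests. Alternatives were other pseudocounts, filters, scalings and variance settings, fits of only the groups compared, the title number as a block, leaving out each library, and edgeR 4.0.16 and DESeq2 1.42.0 on recovered reads. Named miRNAs were the members, the other arms, miRNAs sharing a seed, the 5 most alike in profile, and lists of X-linked and cell type miRNAs; miR-3560, and the arm ratio with no pseudocount, were added after the data were seen. Members, lists and tests were chosen with earlier results of these data known. Sequences and neighbouring genes are from RefSeq (GRCr8).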

Additional observations from a re-analysis of the deposited data

How the results depend on the processing

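The count of miRNAs past the threshold in isografts against normal corneas was 60 of 281 (47 higher, 13 lower). It was 30 with a filter at 50 RPM, 114 after scaling by the median of ratios (67 higher, 47 lower), 122 after scaling to the listed miRNAs (107 higher, 15 lower), 114 with edgeR, 119 with DESeq2, 62 on RPM without miR-184 (38 higher, 24 lower), and 40 to 79 with a library left out. In allografts against normal corneas it was 133 (65 higher, 68 lower), 63 with the filter at 50 RPM, 156 on RPM without miR-184 (51 higher, 105 lower), 186 after scaling to the listed miRNAs (142 higher, 44 lower), and 96 to 162 with a library left out. In allografts against isografts it was 97 (38 higher, 59 lower), 44 with the filter at 50 RPM, 169 after scaling by the median of ratios (80 higher, 89 lower), 163 with edgeR, 171 with DESeq2, 141 after scaling to the listed miRNAs (86 higher, 55 lower), and 42 to 146 with a library left out, 42 without allograft 34, 52 without allograft 12 and 146 without isograft 12. The filter tests fewer miRNAs; otherwise the cause was not tested. Scaling to the listed miRNAs moved the median of all miRNAs to 0.33 in isografts and 0.54 in allografts against normal corneas, and RPM without miR-184 moved it to -0.22 and -0.56.

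The difference of miR-362-5p between isografts and normal corneas changed sign, to -0.029 after scaling by the median of ratios and -0.19 on RPM without miR-184; with a library left out it ran from -0.27 (without isograft 34) to 0.48 (without isograft 12), and it was -0.0069 without isograft 56. That of miR-362-3p ran from -0.074 without isograft 56 to 0.82 without isograft 12. No difference of a tested member changed sign in the comparisons with allografts, where miR-532-3p and miR-362-5p passed against isografts in 4 and 8 of 21 alternatives each. The arm ratio of miR-532 differed between allografts and normal corneas by 0.77 to 0.99 on the log2 scale with a library left out, and that of miR-362 by -0.78 to -0.56. After adjustment over the 2 ratios, the miR-532 call was lost with 0.1 RPM added (0.73), with no pseudocount, chosen after seeing the data (0.71), and with the title number as a replicate block, where the difference was 0.87 (exact permutation p 0.0556, adjusted 0.111). It held with 5 RPM added and with each library left out, settings that keep an added amount and so the tie to the levels used for the choice. The labels do not state whether the numbers pair the libraries. Of 9 same-numbered pairs, 2 deviated together with a correlation above 0.1 (range -0.51 to 0.56). With 3 libraries per group, whose deviations from the group mean cancel out, these correlations cannot decide it. The block called 66 miRNAs in isografts against normal corneas. Members under 5 RPM rest on few reads, and the depth leaves miR-188-5p in isografts within its counting error of normal corneas.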
